A study of Homo sapiens with 5 samples.

Results

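The YAP and TEAD pathway was followed through 10 genes in ribosome footprint libraries of HAP1 cells with and without ZCCHC4, the methyltransferase that the series names for N6-methyladenosine on 28S ribosomal RNA. The 10 were chosen by gene symbol: the coactivators YAP1 and WWTR1, the transcription factors TEAD1, TEAD2 and TEAD4, the kinase LATS2, and the density-sensitive targets CTGF, CYR61, AMOTL2 and ANKRD1. All 10 had a single row among the 13638 rows of the count table, and all 10 passed the filter on low counts that left 11205 genes to be tested. There were 3 libraries labelled as ZCCHC4 knockout and 2 labelled as wild type. HAP1 is a near-haploid, adherent human line derived from a chronic myeloid leukaemia, and both genotypes share this background. The labels name no agent, time point, culture density, clone number or batch, and do not say whether replicates were separate cultures, so the p-values reflect only how far these libraries differ among themselves, which may be technical variation.

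The Hippo pathway is a kinase cascade in which the MST kinases activate LATS1 and LATS2, and these phosphorylate the coactivators YAP1 and WWTR1 (also called TAZ), which are then held in the cytoplasm or degraded. Unphosphorylated YAP1 and WWTR1 enter the nucleus, bind TEAD factors and drive genes such as CTGF and CYR61. Crowding, cell junctions and low cytoskeletal tension favour phosphorylation, so target genes are high in sparse, spread cells. LATS2 and AMOTL2 are also targets themselves and act as negative feedback. A footprint count follows both how much mRNA a gene has and how densely ribosomes occupy it. YAP1 control by phosphorylation and localisation is therefore not visible in these counts, and neither are fewer expressing cells as opposed to less RNA in each cell.

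Depth went with genotype. The knockout libraries held between 16940732 and 31557573 counts and the wild-type libraries 5302160 and 4887380. Levels are given in CPM, the count scaled to a common library size with TMM factors, and 1 count was worth 0.0339 to 0.0619 CPM in the knockout libraries and 0.172 and 0.187 CPM in wild type. ZCCHC4 itself kept 27.8% of the wild-type level, at 3.85, 3.41 and 4.98 CPM in the knockout libraries against 16.04 and 13.3 CPM in the wild-type libraries. Knockout replicate 2 stood apart from the other two (chi-square divided by its degrees of freedom was 27.7 and 24.6, against 2.97 between replicates 1 and 3 and 1.14 between the wild-type libraries). Of the 10 haematopoietic markers examined only 3 had a row, and their summed level was at most 0.183 CPM in the knockout and 0.690 and 0.747 CPM in wild type. These 3 were thus near 0 in both genotypes, and the level of the markers without a row is not known.

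In the knockout libraries the canonical targets CTGF and CYR61 were about 1.6-fold higher, TEAD1 and TEAD2 were higher, and the coactivators lay slightly below wild type, WWTR1 alone passing the test. Of the 10 genes, 5 rose (TEAD1, TEAD2, CTGF, CYR61 and ANKRD1), 1 fell (WWTR1) and 4 stayed above a Benjamini-Hochberg adjusted p of 0.05 in the quasi-likelihood test of edgeR. Over all genes tested 60.0% passed, 30.2% as rises and 29.8% as falls, so the share of pathway genes passing was the same as the background. The median log2 fold change, knockout over wild type, was 0.29 for the 10 genes and 0.02 for all genes. The knockout libraries lay entirely above the wild-type libraries for 7 of the 10 and entirely below for 2, where 76.4% of all genes showed no overlap (38.5% with the knockout above and 37.9% with the knockout below). ANKRD1 alone both passed and changed at least 2-fold, which 23.2% of all genes did, but it passed the low-count filter through the knockout libraries and could only appear as a rise, so its place in these counts was fixed by the filter. Without knockout replicate 3 the number passing was 3 of 9 tested, where 5969 of 10910 genes passed. Without knockout replicate 2 it was 7 of 9 tested, where 8176 of 11161 genes passed. CTGF and CYR61 passed in each of the 13 alternative fits. With upper quartile scaling 5 rose and 2 fell, and with library totals 4 rose and 2 fell, in a setting that lowered the median of all genes by 0.22.

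**Figure D1:**
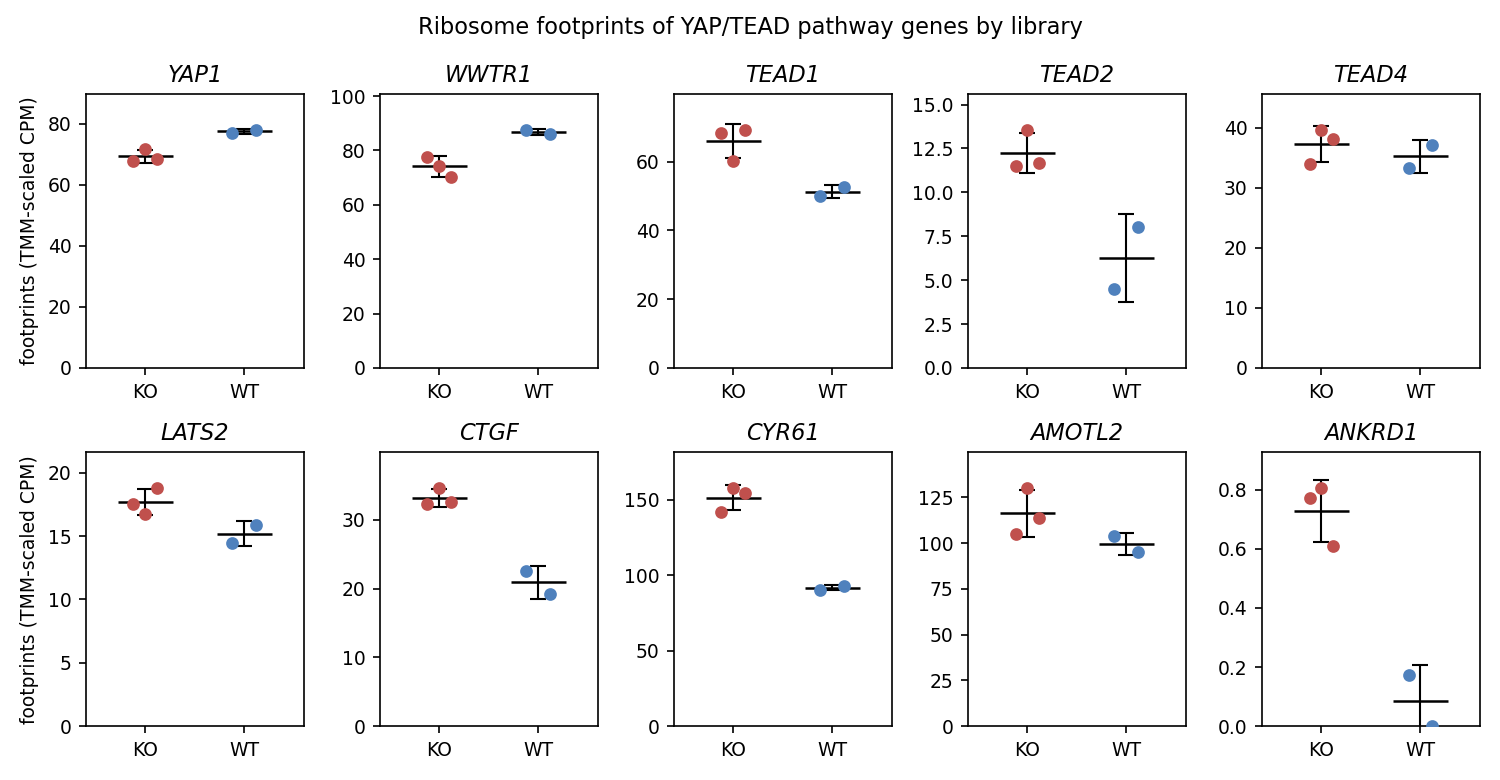
Footprints of the 10 pathway genes in each library (TMM-scaled CPM, linear axes from 0, a separate scale for each gene), with the 3 ZCCHC4 knockout libraries (KO) left of the 2 wild-type libraries (WT). Points are libraries, the long bar is the mean and the whiskers are 1 SD. CYR61 and CTGF are separated by genotype, whereas the libraries of TEAD4 overlap.

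The coactivators were nearly level between genotypes. YAP1 (chromosome 11, 102110461 to 102233423, plus strand, 9 exons; this and later coordinates are those of the GENCODE release 29 transcript on GRCh38) had 67.9, 71.6 and 68.3 CPM in the knockout libraries, against 76.9 and 78.0 CPM in the wild-type libraries. All 3 knockout libraries lay just below both wild-type libraries. The log2 fold change of YAP1 was -0.16 ± 0.08 (SE), with an adjusted p of 0.123 by edgeR, and the exact 95% binomial interval of the ratio, which covers counting error only, ran from 0.827 to 0.957. Without knockout replicate 2 the difference was -0.19 with an adjusted p of 0.00938, and with library totals it was -0.38 with an adjusted p of 0.00372. WWTR1, the YAP1 paralog (chromosome 3, 149517235 to 149703273, minus strand, 8 exons), had 77.7, 74.3 and 70.3 CPM in the knockout libraries, against 87.6 and 85.9 CPM in the wild-type libraries. It fell to 85.4% of the wild-type level, with no overlap between the genotypes and a log2 fold change of -0.23 ± 0.09 (adjusted p = 0.047, edgeR). That call was at the threshold and ended on leaving out wild-type replicate 1 (adjusted p = 0.222), wild-type replicate 2 (0.166), knockout replicate 1 (0.0529) or knockout replicate 3 (0.180), and by DESeq2 (0.0759). Among the 10 genes, YAP1 and WWTR1 had the most similar profiles over the 5 libraries (Euclidean distance of 0.14 between their centred log2 CPM).

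The balance between the coactivators differed by less than the spread between libraries. The log2 ratio of WWTR1 to YAP1 per kb of coding sequence was 0.43 ± 0.09 in the knockout (SD, n = 3) and 0.50 ± 0.04 in wild type (SD, n = 2), and an exact two-sided permutation test over the 5 libraries gave p = 0.4. It was positive in 5 of 5 libraries, so WWTR1 carried more footprints per coding length than YAP1 in both genotypes. With 10 arrangements of 5 libraries this exact test cannot go below p = 0.1, and 8 such ratios and shares were tested. Their Benjamini-Hochberg adjusted values were between 0.2 and 0.8.

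TEAD1 and TEAD2, among the TEAD factors that are the DNA-binding partners of the coactivators, rose. TEAD1 (chromosome 11, 12674591 to 12938034, plus strand, 13 exons) had 68.3, 60.2 and 69.3 CPM in the knockout libraries, against 50.0 and 52.6 CPM in the wild-type libraries. Each knockout library exceeded both wild-type libraries. TEAD1 rose by a log2 fold change of 0.36 ± 0.10 (1.29-fold, adjusted p = 0.0124, edgeR), a call lost without wild-type replicate 1 (adjusted p = 0.118), wild-type replicate 2 (0.0660) or knockout replicate 3 (0.0555), and with library totals, where the value was 0.14 (0.223). TEAD2 (chromosome 19, 49340595 to 49362457, minus strand, 12 exons), best known from early mouse development and neural progenitors, had 11.5, 13.6 and 11.6 CPM in the knockout libraries, against 4.48 and 8.03 CPM in the wild-type libraries. The wild-type values rest on 26 and 43 counts and differ from each other as much as the lowest knockout library differs from the higher wild-type library. TEAD2 rose by 0.97 ± 0.23 on the log2 scale (1.96-fold, adjusted p = 0.00547, edgeR). Without wild-type replicate 1 the rise was 0.60 and no longer passed (adjusted p = 0.0805), and without wild-type replicate 2 it was 1.44.

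TEAD4 (chromosome 12, 2959330 to 3040665, plus strand, 12 exons), a factor of trophectoderm and muscle, had 33.9, 39.6 and 38.1 CPM in the knockout libraries, against 33.3 and 37.2 CPM in the wild-type libraries. The genotypes overlapped. Its log2 fold change was 0.08 ± 0.11 (adjusted p = 0.576, edgeR), with a sign that turned to -0.14 with library totals and to -0.00038 without wild-type replicate 1. TEAD3, the family member outside the 10, was at 3.07 ± 0.180 CPM in the knockout (SD, n = 3) and 3.69 ± 0.587 CPM in wild type (SD, n = 2), with a log2 fold change of -0.27 ± 0.24 that did not pass (adjusted p = 0.355).

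Compared per kb of coding sequence, TEAD1 was the main family member in every library. It held 57.4, 50.4 and 55.4% of TEAD footprints in the knockout libraries and 53.3 and 50.2% in the wild-type libraries, and TEAD4 came next. The TEAD4 share was 31.0, 36.2 and 33.2% in the knockout libraries, against 38.7 and 38.6% in the wild-type libraries. The TEAD2 share was 9.22, 10.8 and 8.88% in the knockout libraries, against 4.56 and 7.30% in the wild-type libraries, and that of TEAD3 was 2.35, 2.59 and 2.49% in the knockout libraries, against 3.42 and 3.84% in the wild-type libraries. The shares of TEAD2, TEAD3 and TEAD4 each separated the genotypes. The exact permutation p was 0.1 for TEAD2 and for TEAD3, the smallest that 5 libraries allow, 0.2 for TEAD4 and 0.4 for TEAD1 (adjusted 0.2, 0.2, 0.32 and 0.457). Summed over the family, TEAD footprints per kb were 94.8 ± 2.65 in the knockout (SD, n = 3) and 77.7 ± 6.10 in wild type (SD, n = 2). The same sum for YAP1 and WWTR1 was 108 ± 3.30 in the knockout and 124 ± 0.510 in wild type. TEAD footprints divided by coactivator footprints were 0.849, 0.855 and 0.943 in the knockout libraries, against 0.592 and 0.666 in the wild-type libraries. This ratio was below 1 in all 5 libraries and higher in each knockout library; it was chosen after the values were seen and carries no test.

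**Figure D2:**
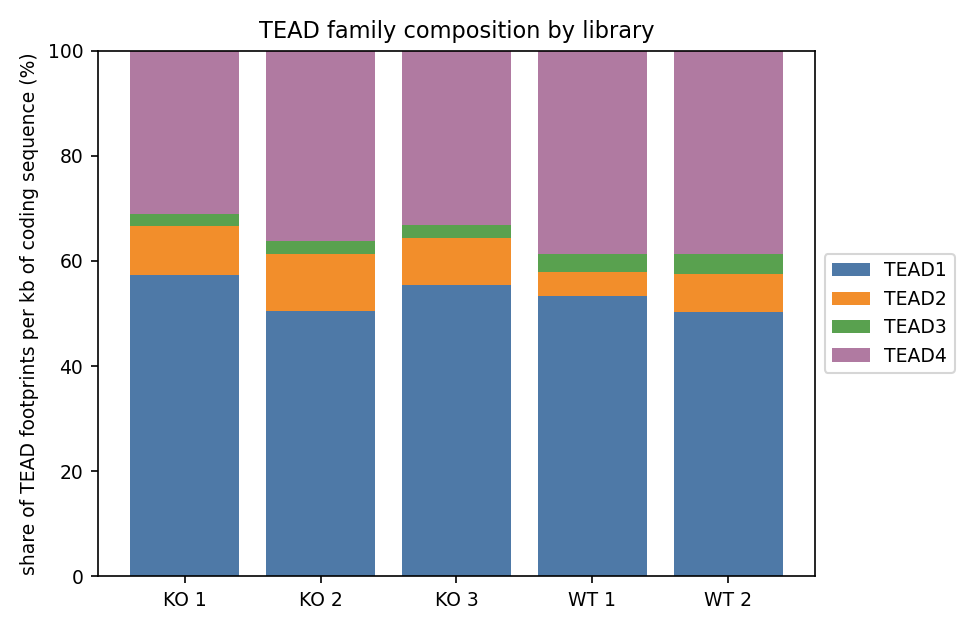
Share of each TEAD factor in the footprints of the family, per kb of coding sequence (percent, stacked to the family total), for knockout libraries 1 to 3 (KO) and wild-type libraries 1 and 2 (WT). TEAD1 is the largest segment in each library, and the TEAD2 segment spans 8.88 to 10.8% in the knockout libraries and 4.56 to 7.30% in the wild-type libraries.

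The kinase LATS2, which phosphorylates the coactivators and is also induced by them, showed a small difference that did not pass. LATS2 (chromosome 13, 20973032 to 21061547, minus strand, 8 exons) had 17.5, 16.7 and 18.8 CPM in the knockout libraries, against 14.5 and 15.9 CPM in the wild-type libraries. The knockout libraries were all above the wild-type libraries, by a log2 fold change of 0.22 ± 0.13 (adjusted p = 0.171, edgeR). Its paralog LATS1 was at 65.4 ± 4.73 CPM in the knockout and 68.0 ± 1.78 CPM in wild type (-0.05 ± 0.10, adjusted p = 0.646). Per kb of coding sequence LATS1 exceeded LATS2 in every library, with a log2 ratio of LATS2 to LATS1 of -1.83 ± 0.09 in the knockout (SD, n = 3) and -2.11 ± 0.06 in wild type (SD, n = 2; exact permutation p = 0.1, adjusted 0.2).

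The angiomotins are scaffolds, and those forms that bind YAP1 tether it away from the nucleus. Their genes differed much more in AMOT than in AMOTL2. AMOTL2, the member that is itself a YAP target (chromosome 3, 134355874 to 134374594, minus strand, 10 exons), had 105, 130.1 and 113 CPM in the knockout libraries, against 104 and 95.2 CPM in the wild-type libraries. The lowest knockout library was barely above the highest wild-type library. Its log2 fold change was 0.22 ± 0.11 (adjusted p = 0.103, edgeR); without knockout replicate 1 it was 0.28 (0.0495) and without knockout replicate 2 it was 0.13 (0.0388). AMOT had 58.2, 58.8 and 61.2 CPM in the knockout libraries, against 11.2 and 12.7 CPM in the wild-type libraries. It rose by 2.31 ± 0.12 on the log2 scale (adjusted p = 9.04e-07, edgeR). AMOTL1 rose by 0.59 ± 0.12 (adjusted p = 0.00281, or 0.0527 when the wild-type libraries, and knockout replicates 1 and 3, were summed as near-identical), to 41.8 ± 4.40 CPM in the knockout (SD, n = 3) against 27.9 ± 0.165 CPM in wild type (SD, n = 2). AMOT thus held 32.6, 29.8 and 31.9% of angiomotin footprints per kb in the knockout libraries, against 9.30 and 11.1% in the wild-type libraries, and AMOTL2 remained the largest at 52.98 ± 3.41% in the knockout and 73.1 ± 1.91% in wild type. The log2 ratio of AMOTL2 to AMOT was 0.75 ± 0.16 in the knockout and 2.85 ± 0.21 in wild type (exact permutation p = 0.1, adjusted 0.2). The AMOT row is a single transcript with 2025 coding bases, and the AMOT shares and ratio per kb rest on this length. How reads of other AMOT isoforms were counted is not given in the sources used here. Whether the rise belongs to a form that binds YAP1 is therefore not known.

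The secreted targets CTGF and CYR61, matricellular proteins of the CCN family and the usual readouts of YAP activity, rose together. CTGF (CCN2; chromosome 6, 131948176 to 131951373, minus strand, 5 exons) had 32.4, 34.6 and 32.5 CPM in the knockout libraries, against 22.6 and 19.2 CPM in the wild-type libraries. It rose by a log2 fold change of 0.66 ± 0.12 (1.58-fold, adjusted p = 0.00109, edgeR). CYR61 (CCN1; chromosome 1, 85580761 to 85583962, plus strand, 5 exons) had 142, 158 and 154 CPM in the knockout libraries, against 90.4 and 92.8 CPM in the wild-type libraries. No library of either gene crossed into the other genotype. CYR61 rose by 0.72 ± 0.09 (1.65-fold, adjusted p = 1.02e-04, edgeR). These changes were of ordinary size for the comparison, at percentiles 80.9 and 82.8 of the log2 fold changes of all genes tested. Over the 13 alternatives CTGF ranged from 0.44 to 0.78 and CYR61 from 0.51 to 0.77. Each was the nearest profile to the other among the 10 genes (distance 0.22), and the log2 ratio of CTGF to CYR61 per kb was -2.06 ± 0.06 in the knockout and -2.01 ± 0.19 in wild type (exact permutation p = 0.8). Other CCN genes with a row were NOV and WISP1. NOV (CCN3) rose to 2.68 ± 0.289 CPM in the knockout against 0.632 ± 0.162 CPM in wild type (2.07 ± 0.40, adjusted p = 0.00172; 7 wild-type counts in all), and like ANKRD1 it passed the filter through the knockout libraries and could only appear as a rise. WISP1 (CCN4) had 1 count in knockout replicate 3 and none elsewhere, against a limit of 3 counts, or 0.102 to 0.186 CPM in the knockout libraries and 0.517 and 0.560 CPM in wild type, and was not tested.

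ANKRD1, a nuclear ankyrin repeat protein of heart and skeletal muscle that is a strong YAP target in many cell types, was almost silent in wild type. ANKRD1 (chromosome 10, 90912096 to 90921276, minus strand, 9 exons) had 21, 13 and 18 counts in the knockout libraries (0.770, 0.805 and 0.610 CPM), against 1 and 0 counts in the wild-type libraries. It passed the filter through the knockout libraries and could therefore only have appeared as higher there. The ratio of summed counts per depth was 7.95, with an exact 95% binomial interval of 1.37 to 320 that covers counting error only. It rose by edgeR (adjusted p = 0.0225), but did not pass by DESeq2 (adjusted p = 0.101). The call also ended on leaving out either wild-type replicate, where the log2 fold change ran from 2.01 to 6.82. ANKRD1 failed the filter, and was not tested, on leaving out any 1 knockout library or at a mean count of at least 50. Knockout levels of ANKRD1 were little above 0.560 CPM, the 3 counts that the count of 0 in wild-type replicate 2 allows. Wild-type replicate 1 held 1 count, to which this limit does not apply. Of the 6 muscle markers, 3 had a row, with a summed level of 0.990, 0.557 and 0.914 CPM in the knockout libraries, against 2.07 and 1.31 CPM in the wild-type libraries; the defining markers DES and MYH6 had at most 2 counts in any library.

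The promoters of CTGF and ANKRD1 are shown because the 2 genes rose and both carry the core TEAD recognition sequence GGAATG near their start. The pair was thus chosen on its outcome, so a rise together with a match in these genes is not a result. Sequences are those of RefSeq on GRCh38.p14, and in the promoter table used here 7 of the 10 genes were matched (10 promoters in all; YAP1, WWTR1, TEAD2, LATS2, CTGF, AMOTL2 and ANKRD1). The motif was searched on both strands (GGAATG or CATTCC) in the 250 bases before each start, and capitals mark the matches. Matches to this single motif do not overlap one another in the stretches printed.
CTGF, chr6:131951373-131951622, minus strand: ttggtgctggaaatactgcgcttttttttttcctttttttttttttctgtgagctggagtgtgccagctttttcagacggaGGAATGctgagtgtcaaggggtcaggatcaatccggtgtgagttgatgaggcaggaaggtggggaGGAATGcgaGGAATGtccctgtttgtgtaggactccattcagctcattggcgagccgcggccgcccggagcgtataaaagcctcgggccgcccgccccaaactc
ANKRD1, distal match, chr10:90921290-90921319, minus strand: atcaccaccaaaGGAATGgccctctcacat
ANKRD1, proximal match, chr10:90921198-90921227, minus strand: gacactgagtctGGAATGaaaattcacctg
AMOTL2, chr3:134374499-134374528, minus strand: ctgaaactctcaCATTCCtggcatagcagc
YAP1, chr11:102110273-102110302, plus strand: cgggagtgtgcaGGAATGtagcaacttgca
The CTGF promoter held 3 matches, which began 169, 104 and 95 bases before the start, and ANKRD1 held 2, which began 220 and 128 bases before it. AMOTL2 had 1 match in 1 of its 2 promoters and YAP1 had 1. No match was found in the windows of WWTR1, TEAD2 and LATS2. The AMOTL2 match and the proximal ANKRD1 match lie in an exon of the GENCODE transcript that was counted, whose start is upstream of the RefSeq start. Among all 35116 RefSeq promoters of this length, 11.9% held at least 1 match, 0.940% at least 2 and 0.0826% (29 promoters) at least 3. Of the 4 genes with a match, CTGF and ANKRD1 rose while YAP1 and AMOTL2 did not pass the test. ANKRD1 could only appear as a rise, because it passed the filter through the knockout libraries, and it did not pass by DESeq2. Its place in this tally was fixed by the filter. TEAD2 rose without a match, and CYR61 and TEAD1 rose but had no promoter to search. A match describes the letters only, and no binding was measured.

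Levels can be ordered per kb of coding sequence. In the knockout the order was CYR61 at 132 ± 7.27 CPM per kb (SD, n = 3), WWTR1 at 61.8 ± 3.11, TEAD1 at 51.6 ± 3.91, AMOTL2 at 49.7 ± 5.44, YAP1 at 45.8 ± 1.34, TEAD4 at 31.7 ± 2.55, CTGF at 31.7 ± 1.199, TEAD2 at 9.13 ± 0.856, LATS2 at 5.42 ± 0.320 and ANKRD1 at 0.761 ± 0.109. In wild type it was CYR61 at 80.1 ± 1.49 CPM per kb (SD, n = 2), WWTR1 at 72.3 ± 1.03, YAP1 at 51.2 ± 0.518, AMOTL2 at 42.5 ± 2.55, TEAD1 at 40.2 ± 1.45, TEAD4 at 30.03 ± 2.33, CTGF at 19.97 ± 2.27, TEAD2 at 4.67 ± 1.87, LATS2 at 4.65 ± 0.299 and ANKRD1 at 0.0901. Neighbours whose libraries overlapped were TEAD1 and AMOTL2, AMOTL2 and YAP1, and TEAD4 and CTGF in the knockout, and AMOTL2 and TEAD1, and TEAD2 and LATS2 in wild type. CYR61 was first in both genotypes, but it led WWTR1 by far more in the knockout. By its mean YAP1 ranked below TEAD1 and AMOTL2 in the knockout, where its libraries overlapped those of both, and above both in wild type, where they did not overlap.

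**Figure D3:**
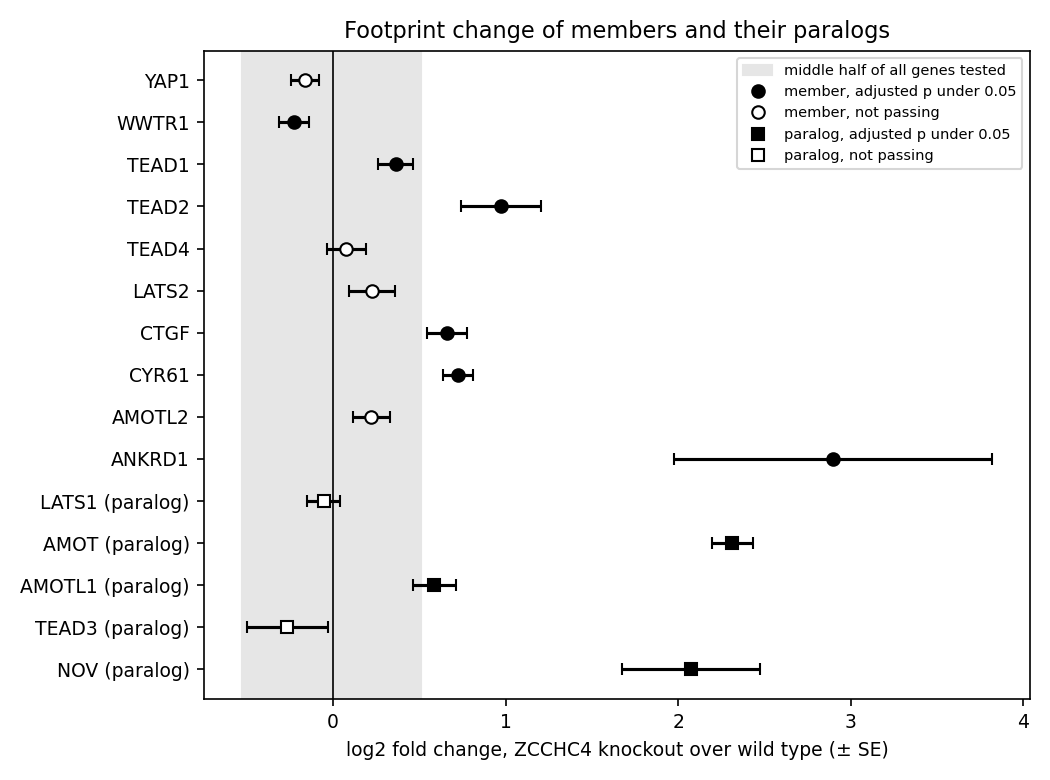
Log2 fold change of footprints, ZCCHC4 knockout over wild type, for the 10 pathway genes (circles) and 5 paralogs (squares), with edgeR SE bars. Filled symbols pass an adjusted p of 0.05, and the grey band is the interquartile range of all genes tested (-0.53 to 0.51). CTGF and CYR61 lie to the right of the band at 0.66 and 0.72, and AMOT lies at 2.31.

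Genes upstream of the coactivators moved in both directions. This list and those that follow were chosen with earlier results of these data known. Their shares set beside those of all genes are descriptions, not tests. Of 28 tested Hippo kinases and upstream regulators (of 30 listed), 6 rose and 8 fell while 14 missed the threshold, a share passing of 50.0% against 60.0% of all genes, with a median log2 fold change of -0.07. AJUBA, a LIM protein that binds LATS kinases and restrains them, rose to 25.4 ± 3.53 CPM in the knockout (SD, n = 3) against 4.96 ± 2.005 CPM in wild type (SD, n = 2; 2.34 ± 0.24, adjusted p = 3.99e-05, edgeR). AMOT, described above, was the other large rise. RASSF5, a partner of the MST kinases, fell by 0.78 ± 0.30 on the log2 scale (adjusted p = 0.0483), a call lost without wild-type replicate 1 (adjusted p = 0.090), wild-type replicate 2 (0.318) or knockout replicate 3 (0.0723). The number passing was 10 without knockout replicate 3, where 5969 of 10910 genes passed, and 20 without knockout replicate 2, where 8176 of 11161 did. With library totals 3 rose and 14 fell. The STRIPAK phosphatase complex, which dephosphorylates the MST kinases, gave 4 rises and 4 falls among 14 tested (57.1% passing, near the 60.0% of all genes, median -0.06), or 3 and 5 with upper quartile scaling and 3 and 7 with library totals. Its largest changes were the rises of CTTNBP2NL (1.96 ± 0.14) and of the scaffold STRN3 (1.10 ± 0.13) and the fall of MOB4 (-1.29 ± 0.19).

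Partners and turnover factors of YAP1 and WWTR1 mostly missed the threshold. Of 10 tested genes 2 rose and 2 fell while 6 missed the threshold, or 40.0% passing against 60.0% of all genes (median 0.04); with upper quartile scaling and with library totals 1 rose and 2 fell. YWHAQ, a 14-3-3 protein of the family that retains phosphorylated YAP1 in the cytoplasm, rose to 1034 ± 44.8 CPM in the knockout against 621 ± 12.1 CPM in wild type (0.74 ± 0.07, adjusted p = 1.81e-05, edgeR). CSNK1D and CSNK1E, the casein kinases that prime phosphorylated YAP1 for degradation, fell by 0.62 ± 0.10 and 0.58 ± 0.11 on the log2 scale. Proteins of cell polarity and junctions, which feed into the pathway, gave 4 rises and 6 falls among 13 tested (76.9% passing against 60.0% of all genes, median -0.33). The scaffolds DLG1 (-1.40 ± 0.13) and INADL (-1.36 ± 0.11) fell, whereas the giant cadherin FAT4 rose by 1.29 ± 0.10, to 81.8 ± 3.93 CPM in the knockout against 33.5 ± 1.75 CPM in wild type.

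Other targets went in both directions. Of 14 tested genes of a published YAP/TAZ target signature, with the pathway genes above left out, 5 rose and 4 fell while 5 missed the threshold (median 0.06). With library totals 3 rose and 6 fell (5 and 6 with upper quartile scaling). MYOF and NUAK2, among the 5 that rose, passed the filter through the knockout libraries and could only appear as rises. RBMS3, among the 4 that fell, passed it through wild type and could only appear as a fall. Their place in these counts was fixed by the filter, so the share passing is not set against the background. MYOF, a membrane repair protein, was at 12.98 ± 0.784 CPM in the knockout with 2 counts in all in wild type, a ratio of 71.5 (exact 95% interval 19.8 to 592, counting error only). NUAK2, a kinase of the AMPK family, was at 2.35 ± 0.556 CPM with 1 wild-type count, a ratio of 25.1 (4.44 to 996). GADD45A, a growth arrest gene also under p53, fell to 6.37 ± 0.984 CPM in the knockout against 31.2 ± 1.62 CPM in wild type (-2.31 ± 0.15, adjusted p = 3.69e-06, edgeR). Of 5 tested genes among other reported targets none rose, 4 fell and 1 did not pass. AREG and THBS1, among the 4, had at most 6 counts in any knockout library and passed the filter through wild type, so they could only appear as falls and the count is not set against the background. At a mean count of at least 50 only 2 genes of the list were tested. CCND1, cyclin D1, fell to 0.909 ± 0.595 CPM in the knockout against 7.87 ± 0.574 CPM in wild type (-3.26 ± 0.42, adjusted p = 1.75e-04), and BIRC5, survivin, by 0.43 ± 0.08 on the log2 scale (adjusted p = 0.00167, edgeR, or 0.124 with the near-identical libraries summed).

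Cytoskeletal genes under SRF and its MRTF cofactors, a second mechanosensitive program that shares CTGF, CYR61 and ANKRD1 as targets, were mostly higher. Of 14 tested genes 9 rose, 1 fell and 4 did not pass, where 30.2% of all genes rose, and the median was 0.42 (6 rose and 2 fell with library totals, median 0.21). The list was chosen with earlier results of these data known, so the rises set beside that share are a description, not a test. TPM2, among the 9, had 3 and 2 counts in wild type. It passed the filter through the knockout libraries and could only appear as a rise, so its place in this count was fixed by the filter. FLNA, the actin crosslinker filamin A, rose to 1417 ± 192 CPM in the knockout (SD, n = 3) against 274 ± 20.3 CPM in wild type (SD, n = 2; 2.37 ± 0.12, adjusted p = 7.81e-07, edgeR). CALD1, caldesmon, rose by 2.09 ± 0.15 and TPM1, a tropomyosin, by 1.29 ± 0.10. SRF itself, named after its values were seen, was at 25.3 ± 2.39 CPM in the knockout and 25.3 ± 0.400 CPM in wild type, with overlapping libraries (adjusted p = 0.978, edgeR). Markers of mesenchymal cells went both ways, with 1 of 3 tested rising and 2 falling. All 6 summed to 573, 617 and 580 CPM in the knockout libraries, against 303 and 323 CPM in the wild-type libraries. VIM rose to 511 CPM in the knockout against 132 CPM in wild type, FN1 fell to 68.6 CPM in the knockout against 164 CPM in wild type, COL1A1 also fell, and COL1A2, THY1 and PDGFRB had no more than 9 counts in any library. Of the 6 epithelial markers 4 had a row, and their sum was 135, 158 and 135 CPM in the knockout libraries, against 154 and 145 CPM in the wild-type libraries, nearly all of it KRT18 (log2 fold change -0.11, adjusted p = 0.366). EPCAM rose to 4.72 CPM in the knockout against 1.35 CPM in wild type (1.82 ± 0.29, adjusted p = 6.23e-04), and CDH1 and KRT19 had no more than 1 count in any library. The part of these markers in the differences above was not tested.

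**Figure D4:**
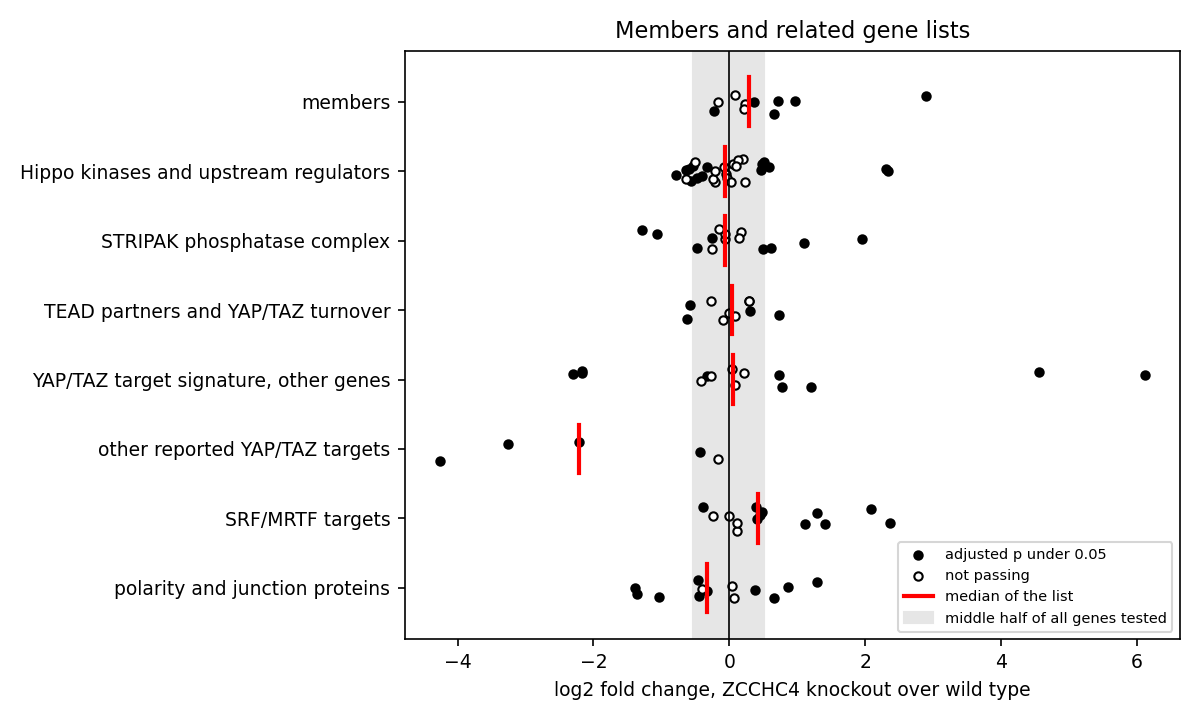
Log2 fold change, ZCCHC4 knockout over wild type, of each tested gene in the 10 pathway genes (members) and in 7 related lists. Filled points pass an adjusted p of 0.05, red bars are list medians and the grey band is the interquartile range of all genes tested. The SRF/MRTF list has its median at 0.42, whereas the other genes of the YAP/TAZ target signature spread from -2.31 to 6.12 around a median of 0.06.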

How the data were processed

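Ribosome footprints of HAP1 cells were counted in 3 ZCCHC4 knockout and 2 wild-type libraries, grouped by the titles and genotypes in the labels. Per the labels' protocols, cycloheximide lysates were digested with RNase I and fragments were taken from monosomes. The deposited table gives raw counts per transcript and symbol; its header is shifted by 1 cell. Bowtie and hg38 are named in the submitters' processing notes. Not given in the sources used here: the counting tool, strand, duplicate removal and treatment of multiply mapping reads, so paralogs could share reads. Rows were matched by transcript to GENCODE release 29 (13533 of 13638).

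edgeR 4.0.16 in R 4.3.3 was fitted on all genes passing filterByExpr (minimum count 10), with TMM scaling, glmQLFit and glmQLFTest and genotype as the only term. P-values were Benjamini-Hochberg adjusted over 11205 genes. Standard errors were taken as the absolute log2 fold change over the square root of the F statistic. Intervals and limits of 3 counts cover counting error only. The procedure was tested on simulated counts. Members and lists were chosen with earlier results of these data known. List genes named are the paralogs and up to 3 passing genes of each list with the largest change and an average log2 CPM of at least 1. Likeness between members is the Euclidean distance of log2(CPM + 0.5) centred on each gene's mean. Genes of the lists without a row were not analysed here. Alternatives were other scalings, filters, DESeq2 1.42.0, a replicate block, leaving out libraries and summing near-identical ones.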

Additional observations from a re-analysis of the deposited data

How the results depend on the processing

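Among ZCCHC4, the 10 pathway genes and the paralogs and list genes refitted, the direction was kept in the alternatives run, except for TEAD4, which did not pass the test in any fit and was at -0.14 with library totals and at -0.00038 without wild-type replicate 1 (-0.00038 to 0.16 over the fits that leave out 1 library). The number of the 10 pathway genes lower in the knockout, 1 in the report, was 2 with upper quartile scaling, library totals or a mean count of at least 50, and 0 without a filter, with DESeq2, with the replicate block or with the near-identical libraries summed. Leaving out 1 library gave 2 to 7 of the 10 passing, with 0 to 2 lower and 2 to 5 higher, and 8 to 20 Hippo regulators. With the near-identical libraries summed, 6 Hippo regulators, 5 STRIPAK genes, 6 SRF/MRTF targets and 6 polarity genes passed, and the calls of WWTR1 (adjusted p = 0.457), TEAD1 (0.239), AMOTL1 (0.0527), RASSF5 (0.104) and BIRC5 (0.124) ended. Fewer genes also passed over all genes with the near-identical libraries summed, a fit in which wild type is a single summed library. The list counts of that fit are therefore not read as losses particular to the lists. At a mean count of at least 50, 2 of the other reported targets and 0 CCN paralogs passed, since genes with low counts left the test.

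Over 9522 genes the deviations of same-numbered libraries correlated at -0.11 for number 1 and -0.10 for number 2, with only 2 pairs. The deviations of the 2 wild-type libraries mirror each other, so these values are not separate checks. They cannot show or exclude a pairing by replicate number. The replicate block left 6094 genes and 4 of the 10 pathway genes passing, and among the genes named the calls it ended were WWTR1 (adjusted p = 0.302), TEAD1 (0.0822) and RASSF5 (0.0517). Full transcript length in place of coding length kept the order of 38 of 45 pairs of the 10 genes in wild type, and without length the log2 ratio of WWTR1 to YAP1 was 0.10 in the knockout and 0.16 in wild type, where the genotype differences of the log2 ratios stay the same by construction. Depth limits ANKRD1, NUAK2 and MYOF, with 1 or 2 wild-type counts in all.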
